A study of Homo sapiens with 24 samples.

Results

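The genes described here are those of DNA replication and of the Fanconi anaemia pathway, taken by symbol: MCM, ORC, RFC, GINS and RPA genes, FANC genes, the replicative and some repair polymerases, the primase subunits, CDC6, CDT1, CDC45, PCNA, LIG1, LIG3 and TIMELESS, with MCM9 left out. Of 75 such symbols in the RefSeq gene table, 55 carried a peak of N6-methyladenosine (m6A) in at least 1 of 4 deposited peak lists, out of 9560 genes that did. Not all members are core factors of replication or the Fanconi pathway. MCM3AP, an mRNA export factor named for its association with MCM3, and its antisense RNA MCM3AP-AS1 are not subunits of the MCM helicase. POLB, POLL, POLQ and MCM8 are known mainly for DNA repair. The remaining 20 symbols had no peak in any list, and 7 of these are protein-coding (FANCB, FANCD2OS, ORC4, ORC6, POLD2, RFC4 and RPA4). A missing peak does not show that a gene was not expressed or not methylated.

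U2OS cells, from a human osteosarcoma, were either METTL3 KO or WT. METTL3 is the catalytic subunit of the main m6A methyltransferase of messenger RNA. All cells were grown with 10 µM BrdU, a thymidine analogue, and were left without UV or given UVC at a dose labelled 50 J, with 2 min between irradiation and lysis. Polyadenylated RNA was immunoprecipitated with an m6A antibody, and each peak list combines the replicates of a condition: KO plus UV with 2 IP libraries, KO minus UV with 3, WT plus UV with 4 and WT minus UV with 3, each IP library having its input. The sources used here do not say whether the KO line was a single clone. The lists give peak positions along a RefSeq transcript, counted from its first base, and hold neither scores nor counts. The depth behind a peak is therefore unknown, no test between conditions was possible, and the intervals below are 95% Wilson intervals for counting error alone. A list does not measure RNA levels, so neither the knockout nor the cell identity could be checked by expression. Of the marker lists, 3 of 8 osteoblast lineage genes (RUNX2, COL1A1 and SPARC), 0 of 6 blood genes and 2 of 5 epithelial genes (EPCAM and KRT8) carried a peak in any list.

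Replication origins are licensed when the origin recognition complex (ORC), CDC6 and CDT1 load the MCM2 to MCM7 helicase. CDC45 and GINS then join the helicase to form the active replicative machine, and primase, DNA polymerases, the PCNA clamp and its RFC loader copy the strands. The Fanconi anaemia pathway detects DNA interstrand crosslinks at stalled forks through a core complex that adds ubiquitin to the FANCD2 and FANCI pair. Many of these genes are transcribed at the start of S phase under E2F factors. The m6A mark lies in a short sequence context, often in long exons and near stop codons, and m6A antibodies also bind a related methylated adenosine next to the cap.

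The members carried 52 peaks in KO plus UV, 86 in KO minus UV, 88 in WT plus UV and 73 in WT minus UV. The whole lists held 9471, 13852, 15465 and 13989 peaks in that order. KO minus UV thus had more member peaks than WT minus UV, while its whole list was slightly shorter. A peak was present on 37 members in KO plus UV (67.3%, against 57.7% of the 9560 genes) and on 44 in KO minus UV (80.0%, against 72.9%). In WT plus UV 51 members had a peak (92.7%, against 83.4%), and in WT minus UV 47 did (85.5%, against 74.6%). The smallest list came from 2 IP libraries and the largest from 4, and the number of libraries and the condition cannot be told apart. In bulk RNA, fewer cells with a transcript, less RNA per cell and less mark per RNA cannot be told apart either. Peak widths on members were like those of the whole lists, with medians of 173, 176, 180 and 176 bases in that order of lists, against 176, 182, 189 and 186 bases over all peaks. Over the 4 lists a member carried a median of 5 peaks (range 1 to 13), and all genes a median of 4.

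**Figure D1:**
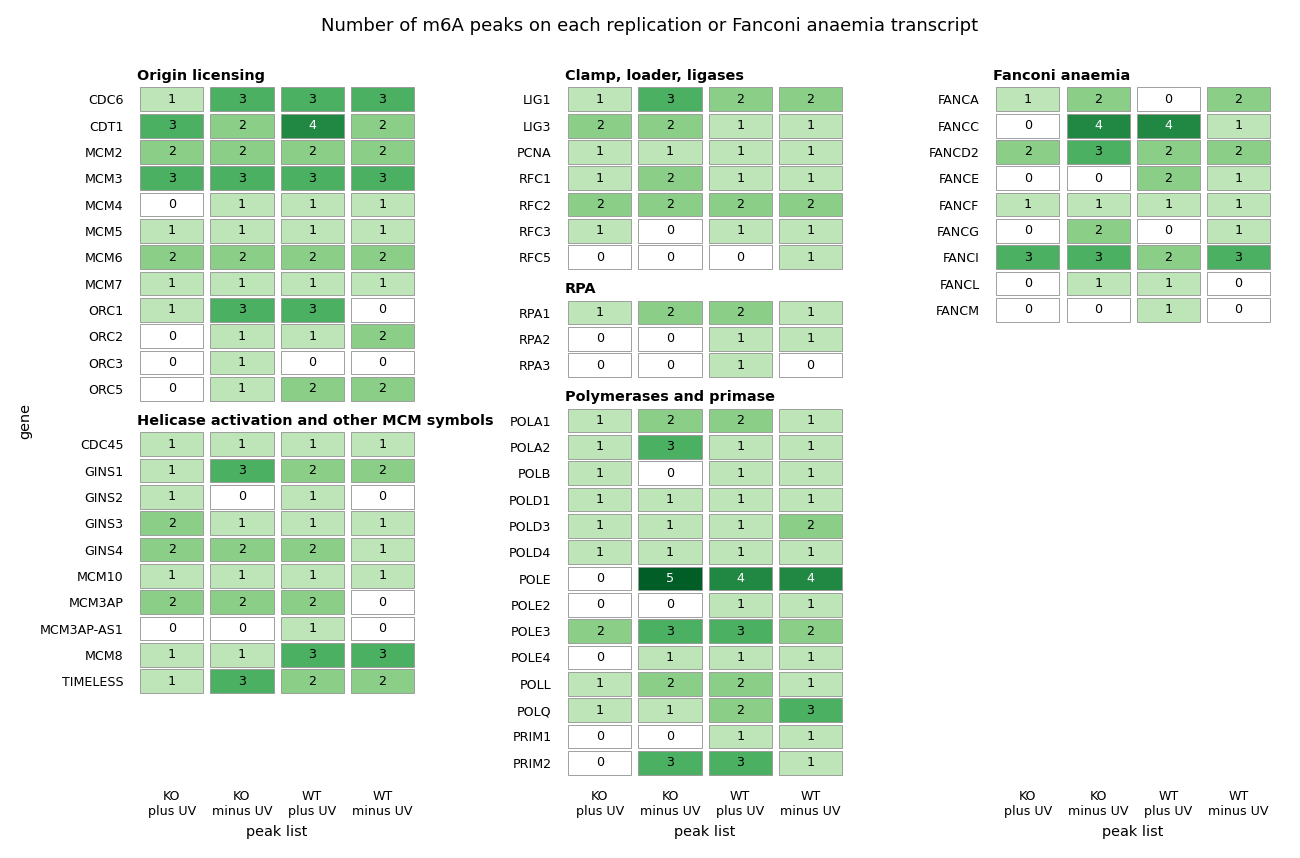
Number of peaks on each of the 55 members (rows, grouped by role) in the 4 peak lists (columns), with a darker square for more peaks. MCM2, MCM3, MCM5, MCM6, MCM7, PCNA and RFC2 had the same number in all 4 lists, while POLE had 0, 5, 4 and 4 from left to right.

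Peaks in every list were found on 31 of 55 members (56.4%, interval 43.3 to 68.6), against 41.2% of all genes. Without the KO plus UV list, 38 members (69.1%) had a peak in each of the other lists, against 54.7% of all genes. When overlapping peaks of the 4 lists were merged, the members held 109 regions, of which 36 (33.0%, interval 24.9 to 42.3) were found in every list, against 25.7% of 20811 regions on all transcripts. Among the 31 members with a peak in every list, 12 also had the same number of peaks in each (38.7%, interval 23.7 to 56.2), against 30.5% of all genes with a peak in every list: CDC45, FANCF, MCM2, MCM3, MCM5, MCM6, MCM7, MCM10, PCNA, POLD1, POLD4 and RFC2. CDC45, POLA2 and POLQ had a peak in every list without a region common to all 4.

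The MCM2 to MCM7 helicase subunits were the most alike across the lists among the origin licensing genes. Of their 11 regions, 9 were found in every list (81.8%, against 25.7% of all regions), and the other 2 lay on MCM4. The origin licensing genes, listed as a single set, held 24 regions, of which 12 (50.0%) were found in every list. The MCM and ORC subunits were set apart within that set, and the difference between them was not tested. MCM3 (chromosome 6, 52264015 to 52284742, GRCh38) carried 3 peaks in each list, the last at bases 2703 to 2903 of its transcript in KO plus UV, KO minus UV and WT minus UV and at 2704 to 2903 in WT plus UV. Its first peak lay at 113 to 240 in KO plus UV, 103 to 260 in KO minus UV, 105 to 260 in WT plus UV and 107 to 260 in WT minus UV. The middle peak lay at 2123 to 2290, 2128 to 2316, 2131 to 2317 and 2134 to 2318 in the same order. Each MCM3 peak therefore kept its place in both genotypes with and without UV to within 28 bases at either edge.

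MCM5 (chromosome 22, 35400140 to 35455031) carried 1 peak, at 2226 to 2419 in KO plus UV, 2228 to 2420 in KO minus UV, 2225 to 2419 in WT plus UV and 2226 to 2419 in WT minus UV. On MCM2 (chromosome 3, 127598411 to 127622436) the first of 2 peaks spanned 302 to 621 in KO plus UV, 278 to 636 in KO minus UV, 293 to 631 in WT plus UV and 297 to 635 in WT minus UV. The second spanned 2810 to 2992 in both KO lists, 2814 to 2995 in WT plus UV and 2810 to 2993 in WT minus UV. MCM6 also carried a peak near its start and another further along in each list, and MCM7 carried 1 peak that began at base 524 in each. MCM4 (chromosome 8, 47960941 to 47978160) differed from the other subunits, with 0 peaks in KO plus UV, a 120-base peak at 1271 to 1390 in KO minus UV, and peaks at 1841 to 1992 in WT plus UV and 1861 to 1994 in WT minus UV. The KO minus UV peak on MCM4 thus lay elsewhere on the transcript than the WT peaks.

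**Figure D2:**
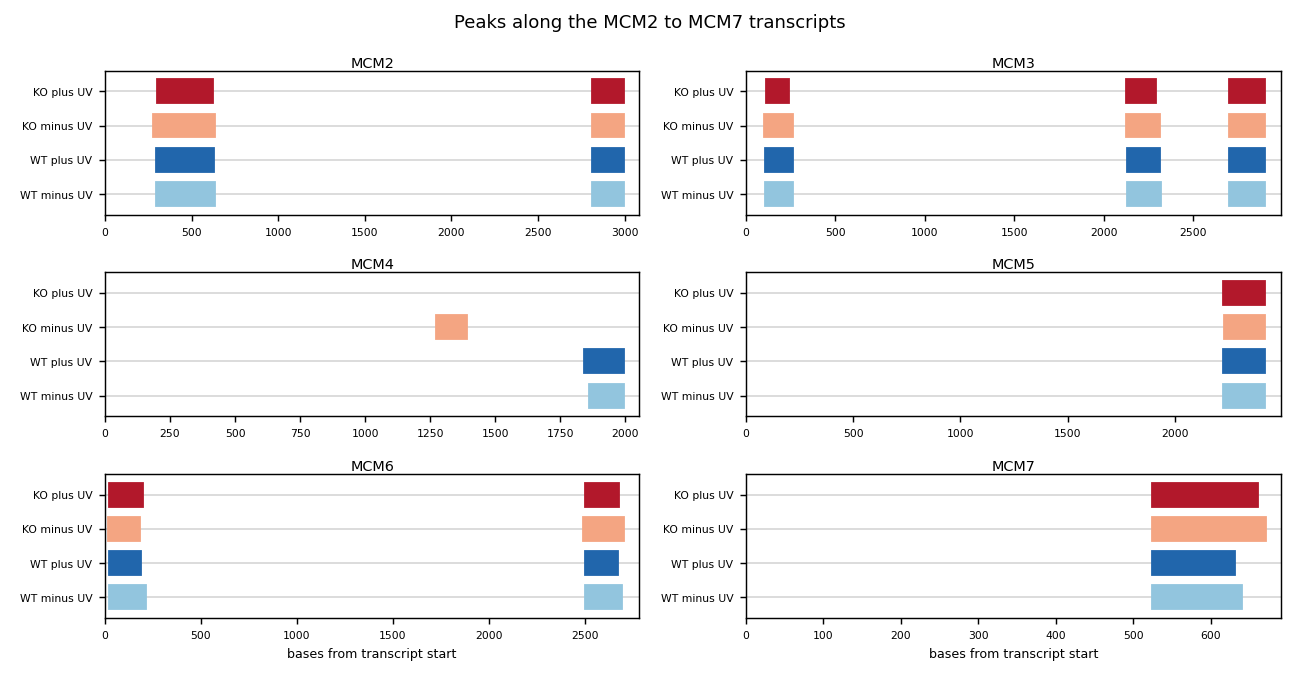
Peaks (bars) along the MCM2 to MCM7 transcripts in each list, with the distance from the transcript start in bases on the horizontal axis, drawn as far as the furthest peak. The bars line up across lists on each transcript except MCM4, where KO plus UV has none and KO minus UV has 1 at 1271 to 1390.

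Subunits of ORC, which marks origins, shared no region across all 4 lists (0 of 7 regions, against 25.7% of all regions). ORC1, its largest subunit (chromosome 1, 52372829 to 52409503), carried 1 peak in KO plus UV, 3 in KO minus UV, 3 in WT plus UV and 0 in WT minus UV. The peak present in 3 lists lay at 1121 to 1346 in KO plus UV, 1046 to 1322 in KO minus UV and 1049 to 1320 in WT plus UV. ORC2 carried 0, 1, 1 and 2 peaks and ORC5 0, 1, 2 and 2 in the same order of lists. ORC3 carried a peak in KO minus UV alone, at 1891 to 2046. The ORC subunits other than ORC1 thus had no KO plus UV peak.

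The licensing factors CDC6 and CDT1 carried peaks in every list. CDC6, which helps ORC load the helicase (chromosome 17, 40287879 to 40304657), carried a peak at 6 to 187 in KO plus UV and no other there. In KO minus UV its peaks lay at 1 to 171, 256 to 468 and 910 to 1081, in WT plus UV at 10 to 190, 244 to 470 and 912 to 1093, and in WT minus UV at 10 to 189, 190 to 471 and 941 to 1100. The peak at the transcript start was thus the part of CDC6 found in all 4. CDT1, which brings the helicase to origins (chromosome 16, 88803789 to 88809258), carried 3, 2, 4 and 2 peaks. Those at 1561 to 1753 and 2440 to 2626 in KO plus UV had a counterpart in each other list. A peak near the CDT1 start was found with UV alone, at 39 to 180 in KO plus UV and 36 to 170 in WT plus UV. It was 1 of 2 member regions present in both UV lists and in neither list without UV (1.83% of 109 regions, against 1.98% of all regions).

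The other such region was on GINS2, a subunit of the GINS complex (chromosome 16, 85676198 to 85688954). GINS2 carried a peak at 591 to 730 in KO plus UV and at 581 to 750 in WT plus UV, and 0 peaks in KO minus UV and WT minus UV. It was the single member with this pattern at the gene level (1.82% of members), against 1.97% of all genes. Its KO plus UV peak had 140 bases, so with peaks of at least 150 bases alone the pattern was lost. Other GINS subunits had peaks in every list: GINS1 carried 1, 3, 2 and 2, GINS3 2, 1, 1 and 1, and GINS4 2, 2, 2 and 1 in the order KO plus UV, KO minus UV, WT plus UV and WT minus UV. CDC45 (chromosome 22, 19479466 to 19520612) carried 1 peak in each list, but that of KO plus UV, at 691 to 790, lay beyond those of KO minus UV (571 to 686), WT plus UV (533 to 688) and WT minus UV (532 to 687). Its gap to the nearest of them was a few bases, so that it was counted as another region.

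MCM10, which acts in helicase activation, carried 1 peak in each list, and TIMELESS, a fork protection factor, 1, 3, 2 and 2. MCM8, a helicase of homologous recombination, carried 1 peak in KO plus UV, 1 in KO minus UV, 3 in WT plus UV and 3 in WT minus UV. Its peaks at 2991 to 3165 in WT plus UV and 2961 to 3124 in WT minus UV had no counterpart in either KO list. MCM3AP (chromosome 21, 46235133 to 46286265) carried 2 peaks in KO plus UV, KO minus UV and WT plus UV and 0 in WT minus UV. MCM3AP-AS1, whose gene overlaps it (46229231 to 46251701), had a peak in WT plus UV alone. Without a stated use of strand in peak calling, reads of this pair cannot be told apart.

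Peaks on the clamp and its loader were mostly shared. PCNA, the sliding clamp (chromosome 20, 5114953 to 5126622), carried 1 peak in each list, at 72 to 230 in KO plus UV, 74 to 230 in KO minus UV, 74 to 238 in WT plus UV and 74 to 237 in WT minus UV. RFC2 carried 2 peaks in each list and RFC1 1, 2, 1 and 1. RFC3 had a peak in every list but KO minus UV, of 100 bases in KO plus UV and WT minus UV and 114 bases in WT plus UV. RFC5 had a peak in WT minus UV alone, at 16 to 178. Of the ligases, LIG1, which joins Okazaki fragments (chromosome 19, 48115445 to 48170344), was covered over 100 bases in KO plus UV, 688 in KO minus UV, 703 in WT plus UV and 288 in WT minus UV. The LIG1 peak of KO plus UV lay at 541 to 640. In KO minus UV the peaks lay at 274 to 622, 721 to 820 and 891 to 1129, in WT plus UV at 277 to 620 and 775 to 1133, and in WT minus UV at 481 to 628 and 971 to 1110. LIG3, a ligase of mitochondrial DNA and of break repair, had peaks in every list within 110 to 610. The pair of LIG3 peaks in KO plus UV (122 to 278, 279 to 500) touched each other, as did the pair in KO minus UV (110 to 288, 289 to 477). LIG3 had a single peak in WT plus UV, at 290 to 610, and in WT minus UV, at 279 to 560. The part before base 279 was thus covered in the KO lists alone, and the whole gene over 379 bases in KO plus UV, 368 in KO minus UV, 321 in WT plus UV and 282 in WT minus UV.

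RPA is the single-strand DNA binding complex that coats unwound DNA and signals stalled forks. RPA1, its largest subunit, carried 1, 2, 2 and 1 peaks in the order KO plus UV, KO minus UV, WT plus UV and WT minus UV. RPA2 had a peak in both WT lists, at 155 to 260 with UV and 155 to 280 without, and none in either KO list. RPA3 had a single peak, at 1089 to 1240 in WT plus UV.

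The polymerase and primase members together held 32 regions, 7 of which (21.9%) were found in every list, near the 25.7% of all regions. POLE, the catalytic subunit of the leading strand polymerase (chromosome 12, 132623762 to 132687342), had the largest peak length of all members summed over the lists, and none of it came from KO plus UV. It was covered over 0 bases in KO plus UV, 1138 in KO minus UV, 848 in WT plus UV and 935 in WT minus UV. The KO minus UV peaks lay at 188 to 389, 1351 to 1530, 5973 to 6140, 7029 to 7330 and 7567 to 7852. In WT plus UV they lay at 182 to 370, 5975 to 6153, 7061 to 7330 and 7601 to 7810, and in WT minus UV at 1311 to 1480, 5973 to 6140, 7038 to 7345 and 7542 to 7830. The 3 last regions were thus shared by the lists other than KO plus UV, while the peak nearest the start was missing in WT minus UV and the next in WT plus UV.

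Accessory subunits of the same polymerase differed among themselves. POLE3, a histone-fold subunit (chromosome 9, 113407235 to 113410749), carried 2, 3, 3 and 2 peaks. Its main peak lay at 482 to 706 in KO plus UV, 482 to 682 in KO minus UV, 481 to 689 in WT plus UV and 482 to 703 in WT minus UV, and a further one at 1561 to 1700, 1521 to 1700, 1521 to 1700 and 1521 to 1698 in that order. A POLE3 peak nearer the start was found at 111 to 210 in KO minus UV and 61 to 160 in WT plus UV. POLE4, the partner of POLE3, had a start peak in every list but KO plus UV. POLE2 had a peak in both WT lists, at 156 to 320 with UV and 150 to 300 without, and none in either KO list.

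Of the primase subunits, the catalytic PRIM1 showed that same pattern, with a peak at 1 to 140 in WT plus UV and 1 to 153 in WT minus UV and 0 peaks in the KO lists. PRIM2 (chromosome 6, 57221540 to 57646850) carried 0, 3, 3 and 1 peaks, and its peak at the transcript start was in every list but KO plus UV. POLA1, the catalytic subunit of the priming polymerase, had a peak near base 700 in every list. A further POLA1 peak lay at 1 to 150 in KO minus UV and another at 172 to 367 in WT plus UV. POLA2, its partner, carried a peak at 1 to 124 in both KO lists and in neither WT list, the only member region with that pattern (0.917% of 109, against 2.53% of all regions). Subunits of the lagging strand polymerase, POLD1, POLD3 and POLD4, had peaks in every list.

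The repair polymerases were POLQ, POLB and POLL. POLQ, the polymerase of theta-mediated end joining, carried 1 peak in KO plus UV at 7754 to 7920, 1 in KO minus UV at 4123 to 4286, 2 in WT plus UV and 3 in WT minus UV, so the KO lists had no POLQ region in common. POLB, which fills gaps in base excision repair, had 1 peak in each list but KO minus UV. POLL, a polymerase of end joining, carried 1, 2, 2 and 1.

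**Figure D3:**
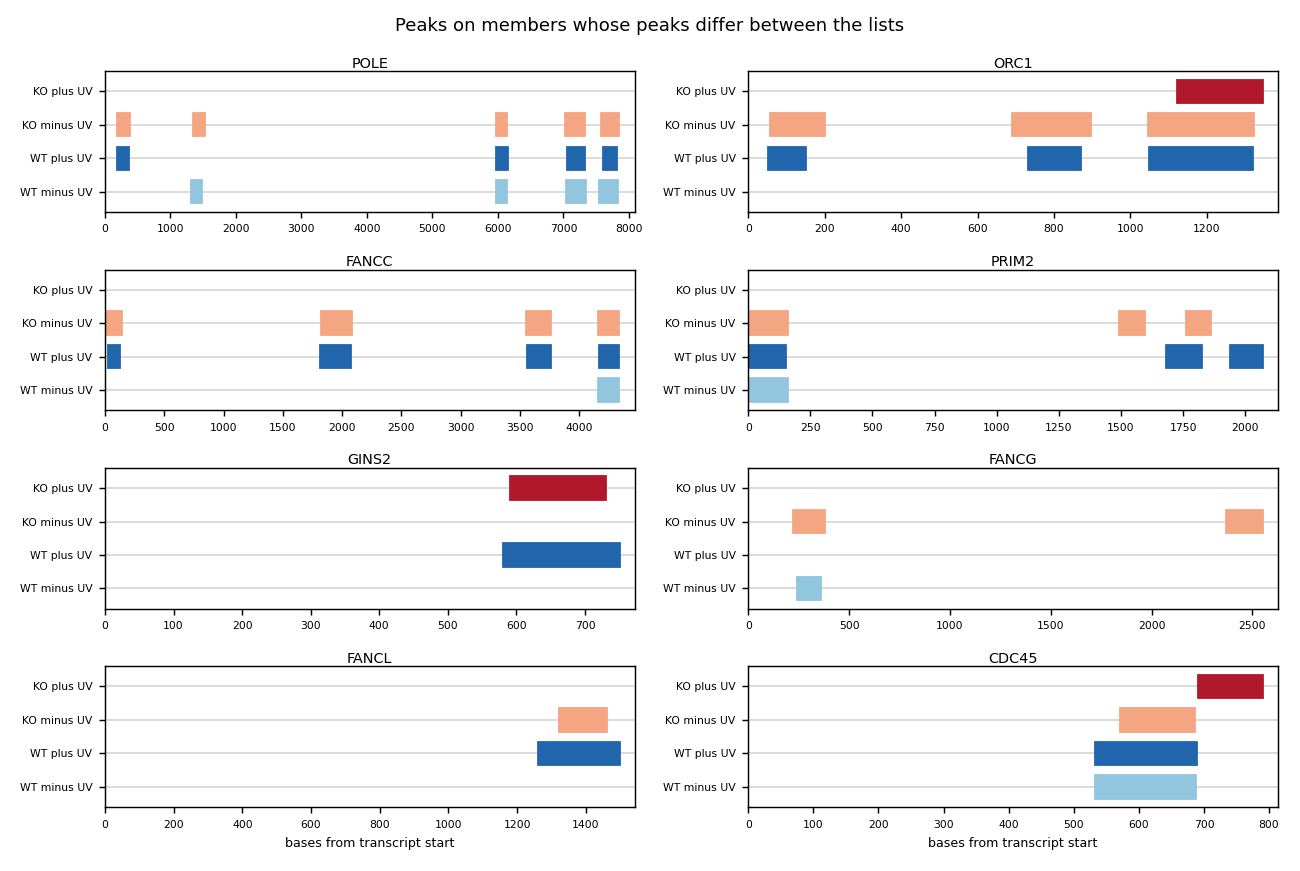
Peaks (bars) along 8 members whose peaks differed between lists, with the distance from the transcript start in bases on the horizontal axis, drawn as far as the furthest peak. KO plus UV is empty on POLE, FANCC, PRIM2, FANCG and FANCL, and GINS2 has bars in the 2 UV lists alone.

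The Fanconi anaemia members fell into those with a peak in every list and those without. FANCI (chromosome 15, 89243979 to 89317259), a partner in the ubiquitinated pair, carried a peak at 3916 to 4091 in KO plus UV, 3902 to 4074 in KO minus UV, 3921 to 4090 in WT plus UV and 3911 to 4092 in WT minus UV. Another FANCI peak ended at base 4568 in each list and began at 4398, 4392, 4393 and 4399 in that order of lists. A FANCI start peak was present without UV alone, at 1 to 133 in KO minus UV and 1 to 100 in WT minus UV. Its partner FANCD2 shared a peak ending at base 4362 in every list, and FANCF, an adaptor of the core complex, a single peak within 677 to 1120. These were the 3 of 9 Fanconi members with a peak in all 4 lists, against 41.2% of all genes.

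FANCC, a core complex subunit (chromosome 9, 95099054 to 95317709), carried 0 peaks in KO plus UV, 4 in KO minus UV, 4 in WT plus UV and 1 in WT minus UV. The 4 peaks of KO minus UV (1 to 140, 1821 to 2080, 3551 to 3760 and 4158 to 4334) matched those of WT plus UV (23 to 130, 1814 to 2070, 3561 to 3760 and 4163 to 4337), and WT minus UV had the last of them alone, at 4162 to 4333. FANCL, the ubiquitin ligase of the core complex, had a peak in KO minus UV (1321 to 1460) and WT plus UV (1261 to 1497) and 0 peaks in the other lists. On FANCG, another core subunit (chromosome 9, 35073839 to 35079942), a peak was found without UV in both genotypes, at 223 to 380 in KO minus UV and 241 to 360 in WT minus UV, and in neither UV list, with a further peak at 2371 to 2550 in KO minus UV. FANCG was the single member with that pattern (1.82%), against 2.27% of all genes. Its WT minus UV peak had 120 bases, so with peaks of at least 150 bases alone the pattern was lost. FANCA, the core subunit with 1, 2, 0 and 2 peaks, was the 1 member with a peak in every list but WT plus UV (against 1.23% of all genes). FANCE had peaks in the WT lists alone, 2 adjoining ones with UV and 1 without, and FANCM, which anchors the core complex to DNA, had a single peak of 360 bases in WT plus UV.

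The comparison of KO cells with and without UV asked whether peaks differ after UV when METTL3 is missing. A peak in KO plus UV and none in KO minus UV was found on 3 members (5.45%, interval 1.87 to 14.9), against 8.62% of all genes: GINS2, POLB and RFC3. The reverse was found on 10 members (18.2%, interval 10.2 to 30.3), against 23.8%: FANCC, FANCG, FANCL, MCM4, ORC2, ORC3, ORC5, POLE, POLE4 and PRIM2. Both shares were near those of all genes. Of the KO plus UV member peaks, 9 of 52 (17.3%) overlapped no KO minus UV peak, against 22.6% over all peaks. Of the KO minus UV member peaks 43 of 86 (50.0%) overlapped no KO plus UV peak, against 47.0%. The KO plus UV list rests on fewer IP libraries than the other.

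In WT cells, which addressed the UV response with METTL3 present, 7 members had a peak in WT plus UV and none in WT minus UV (12.7%, interval 6.30 to 24.0), against 17.4% of all genes. They were FANCL, FANCM, GINS2, MCM3AP, MCM3AP-AS1, ORC1 and RPA3. With peaks of at least 150 bases alone, the number was 11. FANCA, FANCG and RFC5 had a peak in WT minus UV and none in WT plus UV (5.45%), against 8.61%. Of the WT plus UV member peaks, 25 of 88 (28.4%, interval 20 to 38.6) were without overlap in WT minus UV, against 30.0% over all peaks. Of the WT minus UV member peaks 10 of 73 (13.7%, interval 7.61 to 23.4) were without overlap in WT plus UV, against 22.4%. The UV list covers 1 more IP library.

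KO and WT cells without UV, both with 3 IP libraries, were compared for peaks that differ with the genotype. Over all transcripts the KO minus UV list held 13852 peaks and the WT minus UV list 13989. Whether a listed peak depends on METTL3 was not tested. FANCL, MCM3AP, ORC1 and ORC3 had a peak in KO minus UV and none in WT minus UV (7.27% of members, interval 2.86 to 17.3), against 14.7% of all genes. With peaks of at least 150 bases alone, 7 members did. FANCE, POLB, POLE2, PRIM1, RFC3, RFC5 and RPA2 had a peak in WT minus UV and none in KO minus UV (12.7%, interval 6.30 to 24.0), against 16.4%. More peaks in KO minus UV than in WT minus UV were found on 20 members (36.4%), against 29.4% of all genes, and fewer on 12 (21.8%), against 29.1%. Of the KO minus UV member peaks, 26 of 86 (30.2%) overlapped no WT minus UV peak, against 31.1%. Of the WT minus UV member peaks 14 of 73 (19.2%, interval 11.8 to 29.7) were without overlap in KO minus UV, against 32.1%.

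With UV, FANCA was the 1 member with a peak in KO plus UV and none in WT plus UV (1.82%), against 5.68% of all genes. The reverse was found on 15 members (27.3%, interval 17.3 to 40.2), against 31.4%: FANCC, FANCE, FANCL, FANCM, MCM3AP-AS1, MCM4, ORC2, ORC5, POLE, POLE2, POLE4, PRIM1, PRIM2, RPA2 and RPA3. Of the KO plus UV member peaks, 7 of 52 (13.5%) overlapped no WT plus UV peak, against 19.3%, and of the WT plus UV member peaks 43 of 88 (48.9%) overlapped no KO plus UV peak, against 51.0%. The KO plus UV list covers 2 IP libraries and the WT plus UV list 4. FANCE, POLE2, PRIM1 and RPA2 carried peaks in the WT lists alone, both with and without UV (7.27% of members, against 7.12% of all genes). The same pattern in the KO lists was found on 0 members, against 2.00%. With peaks of at least 150 bases alone, PRIM1 and RPA2 no longer had peaks in both WT lists. At that width POLQ took the place of FANCA as the member in KO plus UV and not in WT plus UV.

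Over all 4 lists, 7 members had a peak in every list but KO plus UV (12.7%, against 13.5% of all genes): FANCC, MCM4, ORC2, ORC5, POLE, POLE4 and PRIM2. POLB and RFC3 lacked one in KO minus UV alone (3.64%, against 4.21%), and MCM3AP and ORC1 in WT minus UV alone (3.64%, against 4.62%). FANCL was the member with peaks in KO minus UV and WT plus UV alone (1.82%, against 3.82%). Peaks in a single list were found on FANCM, MCM3AP-AS1 and RPA3 in WT plus UV (5.45%, against 6.97%), ORC3 in KO minus UV (1.82%, against 4.24%) and RFC5 in WT minus UV (1.82%, against 4.40%). No member (0 of 55) had peaks in KO plus UV alone, against 1.75%. More peaks with UV in WT cells and fewer with UV in KO cells were found on 8 members (14.5%, against 11.9%), and the opposite on 0, against 2.60%.

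**Figure D4:**
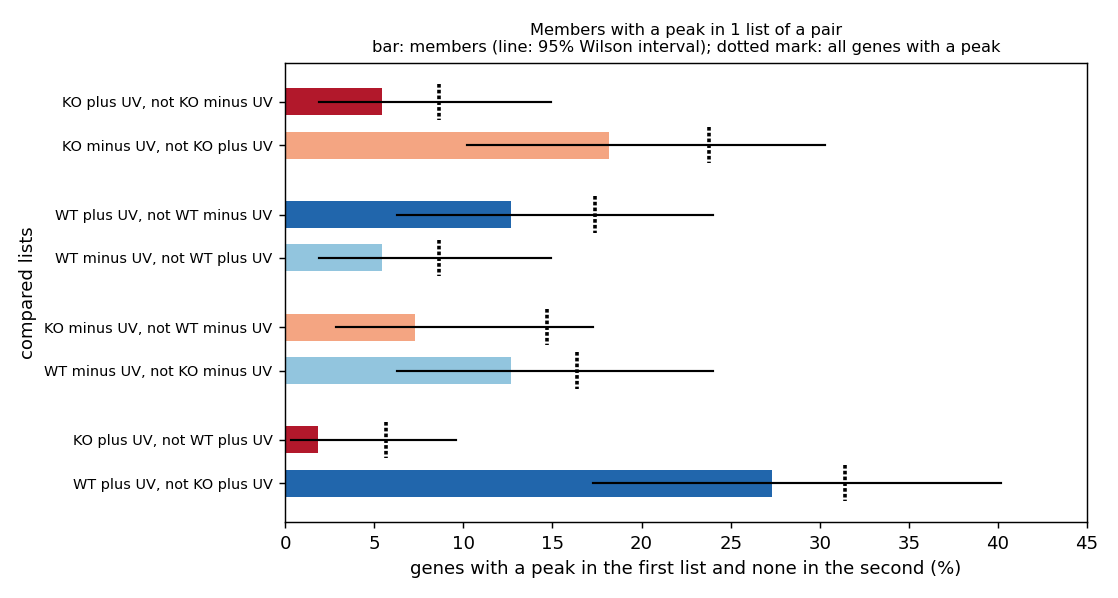
Share of the 55 members with a peak in the first list of a pair and none in the second (bars, percent, with 95% Wilson intervals as lines), with the same share of all 9560 genes as a dotted mark. The mark lies inside the interval for all 8 bars, from 1.82% against 5.68% for KO plus UV, not WT plus UV, to 27.3% against 31.4% for WT plus UV, not KO plus UV.

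Where peaks overlapped, their positions were close. The median distance between the centres of overlapping member peaks was 8.75 bases between KO plus UV and KO minus UV (12.5 over all transcripts) and 5.5 bases between WT plus UV and WT minus UV (10 over all). Between KO minus UV and WT minus UV it was 9 bases (14 over all), and between KO plus UV and WT plus UV 6 bases (14 over all). In 32 member regions each list contributed exactly 1 peak. There the starts spanned a median of 13 bases over the 4 lists and the ends a median of 17. The closest were the last MCM3 peak, whose edges spanned at most 1 base, and the MCM5 and last MCM2 peaks, at most 3 and 4 bases.

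Peaks that began within the first 50 bases of the transcript were found on 17 members. They made up 15.4% of member peaks in KO plus UV, 15.1% in KO minus UV, 13.6% in WT plus UV and 15.1% in WT minus UV, against 10.7%, 9.05%, 10.3% and 9.22% of all peaks. CDC6, GINS1, MCM6 and RFC2 had such a peak in every list. Of these 4 genes, CDC6 alone had a peak from base 1, in KO minus UV. The peaks began at 16 to 31 on GINS1, 17 to 21 on MCM6 and 34 to 37 on RFC2. A start peak therefore need not cover the first transcribed base. The 30 bases around the annotated gene starts of the 4 genes are shown, with the first transcribed base in capitals (RefSeq, GRCh38.p14, 5′ to 3′ on the strand of the gene).
CDC6, chr17:40287864-40287893, plus strand: gggaacgctgtggccAttcggatttggcgc
GINS1, chr20:25407658-25407687, plus strand: ctattggctagctttGttcggcgccaaagc
MCM6, chr2:135876429-135876458, minus strand: gcggcggcggcgcgcGcaaagctgcagcgt
RFC2, chr7:74254385-74254414, minus strand: gcctcgggtggcgggAagaggaggcgcgag
CDC6 and RFC2 begin with A, and GINS1 and MCM6 with G. Promoter windows (250 bases before the start and 50 from it) were matched for 47 members. Those of FANCI, GINS4, MCM4, MCM5, POLB, POLD3, RPA2 and RPA3 were not used. The annotated first base was A in 6 of 15 members with a start peak (40.0%, interval 19.8 to 64.3), in 6 of 32 without one (18.8%, interval 8.89 to 35.3) and in 12 of 47 in all (25.5%, interval 15.3 to 39.5). Among all genes with a peak and a promoter window it was A in 46.1%, with 52.4% for those with a start peak and 44.1% for the rest. The RefSeq start of a gene need not be the start of the transcript in the lists or the start used in U2OS cells.

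Promoter windows were searched for motifs, which the symbol rule did not use directly. Many of these genes are known to be transcribed under E2F factors, so the E2F share is not independent of the choice of members. The E2F motif was searched as TTTCCCGC, TTTCGCGC, TTTGCCGC and TTTGGCGC on both strands, where TTTCGCGC can overlap a reverse match of itself or of TTTGGCGC. It was present in 22 of 47 member windows (46.8%, interval 33.3 to 60.8), in 5.87% of the windows of 7730 peak-bearing genes and in 3.33% of 27305 windows of the table. The share was 10 of 15 (66.7%) among members with a start peak and 12 of 32 (37.5%) among the rest, with overlapping intervals of 41.7 to 84.8 and 22.9 to 54.7. CCAAT, the motif bound by NF-Y, searched on both strands, was present in 57.4% of member windows, against 36.9% for genes with a peak and 35.7% of all windows. A match is a description of the letters and not a binding site.

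Examples of the E2F matches are shown for members whose peaks are described above, with the matched letters in capitals and 30 bases each (RefSeq, GRCh38.p14, strand of the gene).
CDC6, chr17:40287875-40287904, plus strand: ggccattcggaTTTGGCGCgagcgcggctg
MCM2, chr3:127598402-127598431, plus strand: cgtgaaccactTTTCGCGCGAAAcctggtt
PCNA, chr20:5126663-5126692, minus strand: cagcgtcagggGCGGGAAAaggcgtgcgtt
GINS2, chr16:85688967-85688996, minus strand: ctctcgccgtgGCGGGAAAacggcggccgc
POLE, chr12:132687342-132687371, minus strand: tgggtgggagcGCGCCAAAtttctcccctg
Counted from the first transcribed base as position 0, the match began at 7 in CDC6, -59 in PCNA, -31 in GINS2 and -18 in POLE. MCM2 held 2 overlapping matches, on opposite strands, the first beginning at 2. MCM6, whose peaks were in every list, held 4 overlapping matches, in 2 places of the 250 bases before its start, shown here in full with the matched stretches in capitals.
MCM6, chr2:135876444-135876693, minus strand: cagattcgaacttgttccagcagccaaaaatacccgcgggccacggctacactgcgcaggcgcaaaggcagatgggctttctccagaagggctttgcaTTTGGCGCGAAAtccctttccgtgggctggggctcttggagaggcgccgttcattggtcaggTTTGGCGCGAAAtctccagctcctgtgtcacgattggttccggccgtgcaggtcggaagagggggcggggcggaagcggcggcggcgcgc
Members with peaks in every list (MCM2, MCM6, PCNA) and members whose peaks differed between lists (GINS2, POLE) held the motif. Other members of both kinds had no match, such as MCM10, POLD1 and RFC2, and ORC1, FANCL and PRIM2. The examples were taken from members with a match.

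Other genes of the same pathways were counted from lists of genes outside the symbol rule. Of 21 other replication factors, 19 carried a peak in any list: 12 in KO plus UV, 15 in KO minus UV, 15 in WT plus UV and 16 in WT minus UV, and 9 in every list. Over all 9560 genes with a peak the shares in that order were 57.7%, 72.9%, 83.4% and 74.6%, with 41.2% in every list. FEN1, the flap nuclease, carried 2 peaks in each list, WDHD1 4, 3, 4 and 2, DBF4 3, 1, 2 and 1, and TOPBP1 2, 3, 3 and 1. TICRR, which helps load CDC45, carried 0 peaks in KO plus UV, 4 in KO minus UV, 5 in WT plus UV and 6 in WT minus UV, a pattern like that of POLE, and CLSPN carried 1, 6, 4 and 1. DBF4B had a peak in both lists without UV alone, and DSCC1, a subunit of an alternative clamp loader, in both WT lists alone. These patterns were found on 2.27% and 7.12% of all genes.

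Of 20 other Fanconi pathway genes, 14 carried a peak in any list, with 7, 10, 12 and 9 in KO plus UV, KO minus UV, WT plus UV and WT minus UV. Over all genes with a peak the shares in these lists were 57.7%, 72.9%, 83.4% and 74.6%. FAAP100 carried 3, 3, 2 and 2 peaks, RFWD3 3, 3, 2 and 3, WDR48 1, 2, 2 and 2, and SLX4, a nuclease scaffold, 1, 3, 6 and 2. USP1, which removes ubiquitin from FANCD2, carried 0, 1, 4 and 2, and BRCA1 0, 3, 6 and 0. ERCC4, a nuclease subunit, carried 0, 1, 0 and 2, with peaks in the lists without UV alone, as on FANCG and 2.27% of all genes. Of 8 nucleotide supply genes, 7 carried a peak. TYMS, thymidylate synthase, had 1 peak in each UV list and none without UV, the pattern of GINS2 and of 1.97% of all genes. The TYMS peaks covered 200 bases together, and the narrowest peak of the lists had 100. RRM2 carried 2, 2, 1 and 3 peaks, RRM2B 0, 1, 2 and 3 and RRM1 1, 2, 1 and 1, and TK1 and DCTPP1 carried 1 peak in each list.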

How the data were processed

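Peak positions came from 4 lists, 1 per condition, behind which stand 12 IP and 12 input libraries in 8 groups (50-base reads). TopHat2 2.0.14 and hg38 are named in the submitters' processing notes. The sources used here name no peak caller, threshold or use of strand. The deposited values are transcript positions of another kind than signal, and per the labels each list covers all replicates of its condition. Positions were read as counted from 1 with both ends included, which makes the narrowest peak 100 bases.

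Of 9674 transcripts, 9563 were matched to a RefSeq symbol (GRCh38.p14) and 111 were not. Peaks sharing at least 1 base on a transcript counted as overlapping, and overlapping peaks of all lists were merged into regions. Intervals are Wilson intervals (scipy 1.17.1), and the counting steps were checked on simulated lists. With 1 list per condition no test was run.

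Members and gene lists were chosen with earlier results of these data known. Named were members with a peak in 1 list of a compared pair, the 8 with the largest summed peak length, and up to 6 genes of each other list by that length, besides those whose presence followed UV or genotype in both pairs; some genes of the other lists are not reported here, and further members were described by role after their values were seen. Promoter windows came from RefSeq, 1 per symbol. Alternatives covered peak width, the overlap that counts, merging, bases in place of peaks, transcripts holding peaks of both lists, and the symbols that count as members.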

Additional observations from a re-analysis of the deposited data

Results flagged for a closer look

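The peak number of 8 members was higher with UV in WT cells and lower with UV in KO cells (14.5% of members, against 11.9% of all genes), and that of 0 members the other way round, against 2.60%. The difference between the 2 changes, KO minus WT, was -7 peaks for FANCC, -5 for ORC1 and PRIM2, and -2 for FANCL, POLA1, POLE3, POLL and RPA1. On FANCL alone of these 8 did the presence of a peak reverse. These differences were not tested, since each condition has 1 list. They run in the order of the IP libraries: KO plus UV had 2 against 3 for KO minus UV, and WT plus UV 4 against 3 for WT minus UV. The number of libraries and the condition cannot be told apart.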

How the results depend on the processing

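Under the alternatives tried, 25 of 27 counts of members stayed within 1.5 times the reported count and 44 of 48 shares of peaks stayed inside their interval. A count that stayed near its value could still rest on other genes. With peaks of at least 150 bases alone, POLB and POLD1 replaced GINS2, POLB and RFC3 as members in KO plus UV and not KO minus UV. CDC45 and POLD1 replaced RFC3 and RPA2 among those in WT minus UV and not KO minus UV. With peaks of at least 150 bases alone, members with a peak in WT plus UV and none in WT minus UV numbered 11, and those with a peak in KO minus UV and none in WT minus UV 7. Patterns lost at that width included GINS2 with UV, FANCG without UV, and PRIM1 and RPA2 in the WT lists alone. The pattern of FANCL in KO minus UV and WT plus UV alone was lost too. Also lost at that width were those of FANCA, MCM4, POLE4 and RFC3, each missing from a single list. The CDT1 and FANCI start peaks that differed with UV in both genotypes were also narrower than that. Counting transcripts alone that held peaks of both lists, 34.8% of KO minus UV member peaks had no overlap in KO plus UV, 19.2% of WT plus UV peaks none in WT minus UV, 10.6% of WT minus UV peaks none in KO minus UV and 28.6% of WT plus UV peaks none in KO plus UV, since members without a peak in the other list are left out there. Leaving out the KO plus UV list, chosen after seeing the data, gave 38 members in every remaining list. No paired analysis was possible because each list combines its replicates, and no replicate could be left out for the same reason. Depth, peak scores and replicate spread are unknown.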

Other observations

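Of the 109 member regions, 11 were found in KO minus UV and WT plus UV alone (10.1%, interval 5.73 to 17.2), against 4.91% of all regions, and 0 in KO plus UV and WT minus UV alone, against 0.831%. The 11 regions included 3 on FANCC, 2 on ORC1 and 1 each on FANCL, POLE, POLE3, POLL, PRIM2 and RPA1, so they are not independent of each other or of the members named above for their opposite changes with UV. They were chosen after their values were seen, and the difference from all regions was not tested. Regions in both lists without UV and in neither UV list numbered 5 (4.59%, against 3.70% of all regions), on FANCA, FANCG, FANCI, POLE and POLQ. Regions in both WT lists and in neither KO list numbered 6 (5.50%, against 7.90%), on FANCE, MCM4, MCM8, POLE2, PRIM1 and RPA2.

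Of 17 member regions that began within the first 50 bases, 47.1% were found in KO plus UV, 76.5% in KO minus UV, 76.5% in WT plus UV and 64.7% in WT minus UV. Of the 92 other member regions, 46.7%, 75.0%, 78.3% and 64.1% were found in the same lists. Over all transcripts the shares were 49.0%, 58.5%, 76.1% and 63.1% for start regions and 42.3%, 63.6%, 70.1% and 63.8% for the others. In every list were 23.5% of the member start regions (interval 9.56 to 47.3) and 34.8% of the other member regions (interval 25.8 to 44.9), against 24.2% and 25.8% over all transcripts.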
